A study of Mus musculus with 6 samples.

Results

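Transcript levels of 45 mouse genes of DNA replication and deoxynucleotide supply were compared between cultured epithelia of 3 stomach regions: antrum, corpus and forestomach. The genes were chosen by name and grouped by role: the Mcm2 to Mcm7 helicase, the GINS complex, origin licensing and firing, the sliding clamp and its loader, DNA polymerases with primase, single-strand binding, Okazaki fragment joining, nucleotide synthesis, S-phase entry, and chromatin and histone partners. All 45 were present, out of 15431 genes, and all 45 reached the level needed for testing. The choice was made with earlier results of these data known, so shares of all genes given beside these genes are not a blind comparison. Nearly all of the 45 genes ran in the same order, highest in forestomach, intermediate in antrum and lowest in corpus: the group means had that order for 41 of 45 genes (91.1%), against 42.3% of all 11891 genes tested. The step from antrum to corpus was less certain: none of the 45 passed the test between these regions, and 80.5% of all genes were higher in antrum.

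RNA was sequenced from wild type mouse epithelial cells grown in culture, with 2 libraries for each region and 6 in all. The antrum group holds antrum and pylorus together and, like corpus, was a flat (2D) culture made by the study's own method, whereas forestomach cells followed an earlier published protocol. Region and culture method therefore cannot be told apart in any comparison with forestomach. All groups carry the label p2 and the same pair of ID numbers, which the columns of values do not repeat, so libraries are called antrum 1, antrum 2 and so on after the columns. The labels do not say whether both libraries of a region came from different animals or cultures, so the p-values rest on a spread that may be only technical. In bulk RNA, fewer cells in S phase and less RNA of a gene in each such cell cannot be told apart.

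Before S phase, the origin recognition complex, Cdc6 and Cdt1 load the Mcm2 to Mcm7 helicase onto replication origins. Cyclin E with its kinase, together with Mcm10 and GINS, helps to start the helicase, after which primase, polymerases alpha, delta and epsilon, the Pcna clamp with its Rfc loader and the Rpa complex copy both strands, and Fen1 and Lig1 join the fragments of the lagging strand. Deoxynucleotides come from ribonucleotide reductase (Rrm1 and Rrm2), thymidylate synthase and salvage kinases, and many of these genes are known targets of E2F transcription factors in dividing cells. In the stomach, dividing cells lie in the isthmus of the glands and, in the squamous forestomach, in the basal layer.

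The promoters of the 45 members were searched for E2F-type motifs, which are bound by the transcription factor family of E2f1. The motifs were TTTCCCGC, TTTCGCGC, TTTGCCGC and TTTGGCGC, on both strands, overlapping matches allowed, in the 250 bases before each gene start in RefSeq, build GRCm38.p6. Promoters were matched for 37 of the 45 members, and 8 of these (21.6%) held at least 1 motif: Mcm5, Mcm6, Mcm7, Gins3, Cdc6, Rfc3, Pola1 and Uhrf1. Over all promoters the share was 583 of 27025 (2.16%). For comparison, CCAAT, a general promoter element, was found in 22 of 37 member promoters (59.5%) and in 37.5% of all promoters. These are counts of letters in a window and do not show binding. Many members are known E2F targets, so their share may follow from the choice of genes, whatever their levels here. The shares over all promoters were not limited to the 11891 genes tested. Against forestomach, 29 of all 45 members (64.4%) were lower in antrum and 40 (88.9%) in corpus. Over all genes tested, 18.7% were lower in antrum and 26.5% in corpus. Of the 8 members with a motif, Mcm5, Mcm7 and Gins3 were lower in both antrum and corpus than in forestomach, Mcm6, Rfc3, Pola1 and Uhrf1 passed the test in corpus only, and Cdc6 passed it in neither. The stretches around the motifs of 4 members, which hold all 3 of these results, are shown 5′ to 3′ on the strand of the gene, with motif letters in capitals. They lie at chr8:75109336-75109387 on the plus strand for Mcm5, chr1:128359725-128359835 on the minus strand for Mcm6, chr11:98907993-98908040 on the plus strand for Cdc6 and chrX:93632266-93632313 on the minus strand for Pola1.
Mcm5: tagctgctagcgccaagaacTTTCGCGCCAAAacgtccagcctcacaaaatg
Mcm6: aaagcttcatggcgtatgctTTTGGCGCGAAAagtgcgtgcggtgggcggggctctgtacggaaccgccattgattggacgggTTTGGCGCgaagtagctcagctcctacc
Cdc6: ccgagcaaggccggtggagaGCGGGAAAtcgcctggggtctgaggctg
Pola1: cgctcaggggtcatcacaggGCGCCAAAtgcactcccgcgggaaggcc
In Mcm5 and in the first run of Mcm6, motifs on opposite strands overlap by 4 letters, so each of these runs of capitals counts as 2 matches. In Mcm6 another match lies nearer the start.

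Values are CPM (read counts scaled to the size of the library), as the authors deposited them. Steps in the low values gave 36.9 M to 47.7 M reads per library, of which 14.0 M to 18.2 M fell on listed genes, or 33.1% to 48.3% of a library. A level of 3 reads equals 0.063 to 0.0814 CPM, which covers counting error only. Squamous and glandular markers set forestomach apart from antrum and corpus: the 5 squamous markers Krt5, Krt14, Trp63, Krt13 and Dsg3 summed to 2.77 and 1.49 CPM in antrum, 2.35 and 3.40 CPM in corpus, and 11765 and 10283 CPM in forestomach. The 6 glandular markers Krt8, Krt18, Cldn18, Muc5ac, Pgc and Gkn2 summed to 5120 and 3562 CPM in antrum, 6404 and 6099 CPM in corpus, and 3.67 and 8.83 CPM in forestomach. These markers were not chosen to tell antrum from corpus, and the match of those labels was not tested. Trp63 was at 0 in both corpus libraries and Gkn2 at 0 in both forestomach libraries. Markers of other cells also differed with region. The 10 fibroblast markers summed to 57.7 and 51.7 CPM in antrum, 80.7 and 38.1 CPM in corpus, and 4.14 and 1.26 CPM in forestomach, where 5 of the 10 (Col1a2, Col3a1, Pdgfrb, Thy1 and Lum) were at 0. Acta2, also made by muscle cells, was higher in forestomach, with 0.62 and 0.47 CPM in antrum, 0.38 and 0.65 CPM in corpus, and 3.85 and 1.14 CPM in forestomach. Of 5 immune markers 4 had values, which summed to 15.9 and 16.1 CPM in antrum, 10.9 and 7.74 CPM in corpus, and 46.5 and 42.9 CPM in forestomach, with Ptprc, which marks all blood leukocytes, at or under 0.13 CPM throughout and at 0 in forestomach. The higher sum in forestomach came from Cd68, a lysosomal protein of macrophages, with 4.13 and 4.84 CPM in antrum, 4.67 and 3.61 CPM in corpus, and 44.8 and 39.5 CPM in forestomach. Cd14, a receptor of monocytes, ran the other way, with 11.8 and 11.1 CPM in antrum, 6.19 and 4.07 CPM in corpus, and 1.67 and 3.34 CPM in forestomach. The 3 endothelial markers summed to at most 1.38 CPM in any library. The part of these other cells in the results below was not tested.

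Differences are log2 fold changes of CPM + 1, on which low genes show less than their true fold, tested with limma in 1 fit over all 6 libraries and adjusted by Benjamini-Hochberg over 11891 genes. A gene was called lower or higher at an adjusted p under 0.05. In antrum against forestomach, 29 of 45 members were lower, where 18.7% of all genes were lower, and none was higher, where 20.2% of all genes were higher (limma). At an unadjusted p under 0.05, 33 members (73.3%) differed, all lower in antrum, as did 48.3% of all genes in either direction. The median of the members was -0.93, against -0.03 over all genes. In corpus against forestomach, 40 of 45 members were lower, where 26.5% of all genes were lower, and 0 were higher, where 17.1% of all genes were higher (limma). At an unadjusted p under 0.05 these were 40 members (88.9%), and 51.6% of all genes in either direction. The median was -1.46, against -0.23 over all genes. Both comparisons use the same forestomach libraries.

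Over the members, the ratio of forestomach over antrum means ran between 0.816 and 5.02, with a median of 2.10. The ratio of forestomach over corpus means ran between 1.25 and 8.63, with a median of 3.15. Both forestomach libraries lay above all 4 others for 40 members (88.9%), against 34.3% of all genes. For 37 members (82.2%) the libraries of the 3 regions did not overlap at all and followed the order of forestomach over antrum over corpus, against 15.7% of all genes. Of the 5 members whose forestomach libraries did not both lie on top, 4 were the helicase activator subunit Gins2, the licensing factor Cdc6, the clamp loader subunit Rfc1 and the ligase Lig1. The other was Pola1, the catalytic subunit of polymerase alpha.

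**Figure D1:**
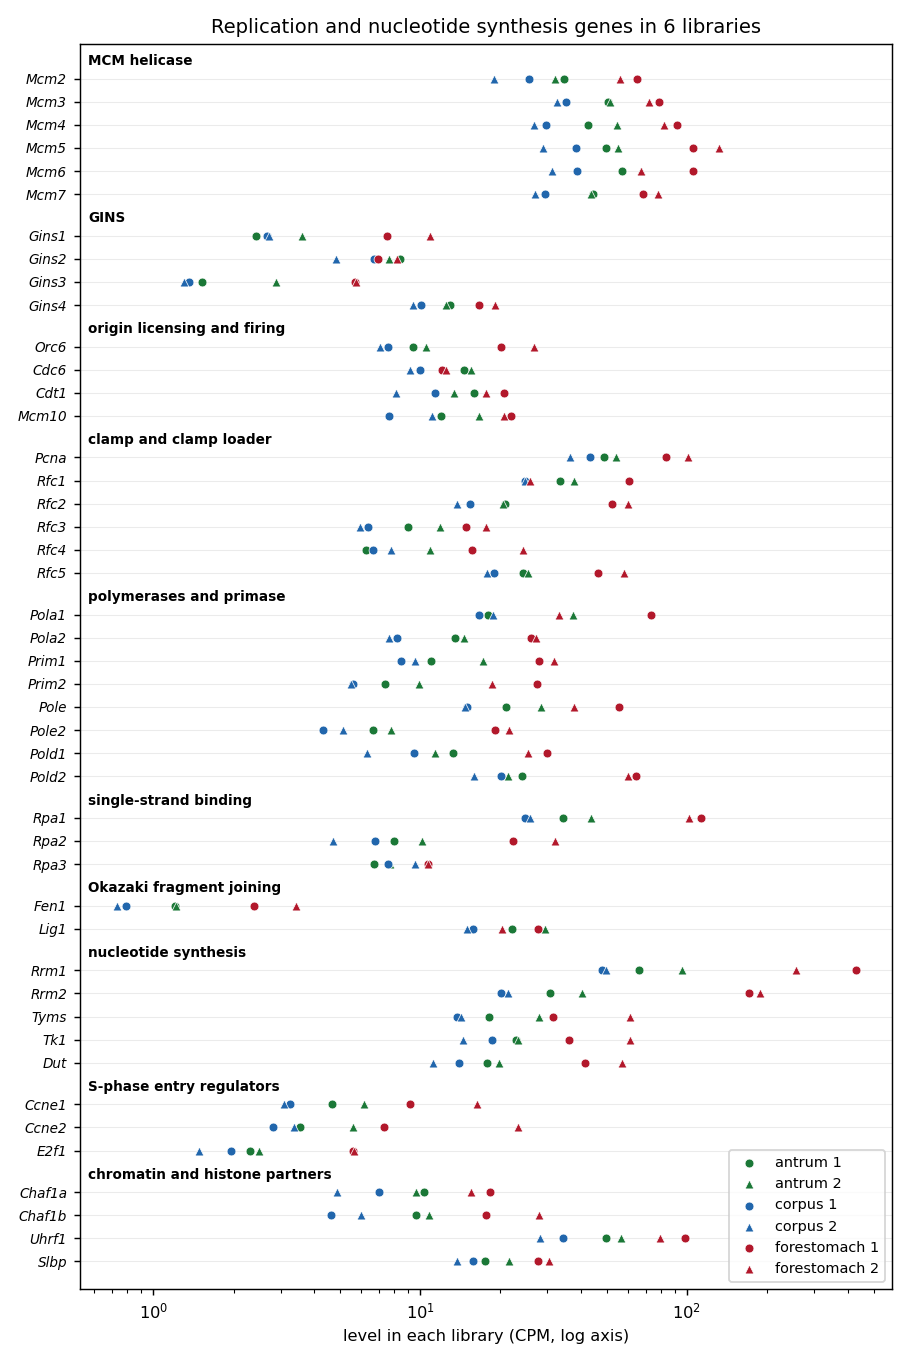
Level of each of the 45 genes in CPM on a log axis, by role, with 1 point for each of the 2 antrum, 2 corpus and 2 forestomach libraries. For 40 genes both forestomach points lie right of all others, and for 41 genes both antrum points lie right of both corpus points.

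The antrum count depended on both antrum libraries. Without antrum 1 it was 9 of 45, where 12.3% of all genes were lower, and without antrum 2 it was 15 of 45, where 10.3% were, in fits where the remaining antrum library was assumed to vary like the other groups. The same 9 genes were lower under every one of the 15 alternatives that tested them: Gins1, Rfc2, Pole2, Pold2, Rpa1, Rpa2, Rrm1, Rrm2 and Dut. Gins1 was not tested under the filter on a mean of at least 5 CPM. Calls lost without antrum 1 were those of Mcm2, Mcm4, Mcm5, Mcm7, Gins3, Orc6, Pcna, Rfc4, Rfc5, Pola2, Prim1, Prim2, Pole, Pold1, Fen1, Tk1, Ccne1, Ccne2, E2f1 and Chaf1b. Without antrum 2, 14 of these calls were lost as well. Without either corpus library Mcm2, Mcm4, Mcm7, Pcna, Pola2, Pole, Tk1 and Ccne2 lost their antrum call, without forestomach 1 Mcm2 and Pole did, and without forestomach 2 Rfc4, Prim1, Tk1, Ccne1, Ccne2 and Chaf1b did. The call of Mcm7 in antrum was the least stable, with 10 of the 15 alternatives ending it, among them both other pseudocounts, the stricter filter and the crossed block. In corpus, 27 members were lower under every one of the 15 alternatives that tested them. Of these, Gins1, Gins3, Fen1 and E2f1 were not tested under the filter on a mean of at least 5 CPM. With a library left out, the members' median in corpus against forestomach ran from -1.57 to -1.34, against -0.42 to -0.06 over all genes. Without corpus 2 the corpus calls of Mcm3, Mcm6, Gins4, Cdt1, Pcna, Rfc3, Pola1, Tk1, Chaf1a and Slbp were lost, and without corpus 1 those of Gins4, Cdt1, Mcm10, Rfc4, Pola1, Ccne2 and Slbp. With each library rescaled by its median ratio to the others, or to the same total over the listed genes, Mcm7, Rfc4, Tk1, Ccne1 and Ccne2 lost their antrum call, and Gins4, Mcm10, Rfc4 and Slbp lost their corpus call. Over the listed genes Chaf1b lost its antrum call too. No member was called higher under any alternative.

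The 2 subunits of ribonucleotide reductase, Rrm1 and Rrm2, showed the largest differences from forestomach of all members, in antrum and in corpus alike. Of the 5 enzymes of nucleotide synthesis, against forestomach, 4 were lower in antrum and 5 of 5 in corpus, with medians of -1.33 in antrum and -1.88 in corpus. Rrm2, the small subunit of ribonucleotide reductase, which makes deoxynucleotides, had 30.7 and 40.5 CPM in antrum, 20.1 and 21.3 CPM in corpus, and 170.2 and 187.2 CPM in forestomach. Every antrum library was above every corpus library and both were several-fold below forestomach. The log2 fold change of Rrm2 was -2.31 (SE 0.27, limma adjusted p = 0.000124) in antrum and -3.05 (SE 0.27, limma adjusted p = 2.11e-05) in corpus, the largest of all members in both. Rrm1, the large subunit, had 66.4 and 95.4 CPM in antrum, 48.02 and 49.7 CPM in corpus, and 428.1 and 256.1 CPM in forestomach. Its log2 fold change was -2.04 (SE 0.33) in antrum and -2.74 (SE 0.33) in corpus, and the forestomach libraries differed from each other by more than either antrum or corpus pair did.

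Dut, which breaks down dUTP and so keeps uracil out of DNA, was lower in antrum (log2 fold change -1.33, SE 0.27) and in corpus (-1.88, SE 0.27). Its levels were 17.8 and 19.7 CPM in antrum, 13.9 and 11.2 CPM in corpus, and 41.4 and 56.9 CPM in forestomach. Averaged over both regions, the smallest change of these enzymes was that of Tk1, the thymidine kinase of the salvage route, with 23.0 and 23.2 CPM in antrum, 18.6 and 14.4 CPM in corpus, and 36.0 and 61.0 CPM in forestomach. Tk1 was lower in antrum (-0.99, limma adjusted p = 0.0311, but -0.62 and not called without forestomach 2) and in corpus (-1.46, limma adjusted p = 0.0046). Tyms, thymidylate synthase, had 18.2 and 28.0 CPM in antrum, 13.7 and 14.2 CPM in corpus, and 31.4 and 61.4 CPM in forestomach. The groups of Tyms did not overlap, but antrum 2 came close to forestomach 1, and its antrum value of -0.93 missed the threshold (limma adjusted p = 0.0671), while the corpus value of -1.59 passed it (limma adjusted p = 0.00625).

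Of the DNA polymerase and primase subunits, 7 of 8 were lower in antrum and 8 of 8 in corpus, with medians of -1.08 in antrum and -1.67 in corpus. Pole2, the accessory subunit of the leading strand polymerase epsilon, had 6.69 and 7.80 CPM in antrum, 4.31 and 5.16 CPM in corpus, and 19.0 and 21.6 CPM in forestomach. It was lower, at -1.37 in antrum (SE 0.25, limma adjusted p = 0.00233) and -1.89 in corpus (SE 0.25, limma adjusted p = 0.000329), and the 3 groups lay apart. Log2 fold changes of the other called subunits, Pole, Pold1, Pold2, Pola2, Prim1 and Prim2, ran between -1.41 and -0.88 in antrum and between -1.85 and -1.57 in corpus. Pola1 stood apart from them, with 17.97 and 37.4 CPM in antrum, 16.7 and 18.8 CPM in corpus, and 73.6 and 33.2 CPM in forestomach. Antrum 2 lay above forestomach 2, and both antrum and forestomach libraries differed among themselves by about as much as the groups did. Its antrum value of -0.90 (SE 0.43) did not pass the threshold (limma adjusted p = 0.128) and its corpus value of -1.43 (SE 0.43) did (limma adjusted p = 0.0245), but not without forestomach 1 (-0.87), corpus 1 or corpus 2, with the block on column numbers, or with libraries scaled over the listed genes.

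All 6 helicase subunits were lower in corpus than in forestomach, and 4 of 6 were lower in antrum, with medians of -0.77 in antrum and -1.38 in corpus. Mcm5 changed most, with 49.6 and 55.1 CPM in antrum, 38.4 and 29.0 CPM in corpus, and 105.4 and 131.4 CPM in forestomach. Its log2 fold changes were -1.16 in antrum (SE 0.28, limma adjusted p = 0.0095) and -1.79 in corpus (SE 0.28, limma adjusted p = 0.000782). Averaged over both regions Mcm3 changed least, with 50.8 and 51.5 CPM in antrum, 35.2 and 32.7 CPM in corpus, and 78.3 and 72.2 CPM in forestomach. The 3 groups of Mcm3 were separate and close within themselves, yet its antrum value of -0.55 missed the threshold (SE 0.25, limma adjusted p = 0.112). In corpus it was lower, at -1.12 (limma adjusted p = 0.00579).

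Mcm6 was the other helicase subunit not past the threshold in antrum, with 56.9 and 67.1 CPM in antrum, 38.6 and 31.2 CPM in corpus, and 105.1 and 67.4 CPM in forestomach. Antrum 2 and forestomach 2 had nearly the same Mcm6 level, and the antrum value was -0.44 (limma adjusted p = 0.28). In corpus it was -1.25 (limma adjusted p = 0.00877). Mcm2, Mcm4 and Mcm7, the remaining subunits, were lower, between -0.84 and -0.72 in antrum and between -1.59 and -1.34 in corpus.

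GINS joins the helicase at the moving fork, and its subunits did not all move alike. Gins1 and Gins3 were lower in both regions, Gins4 only passed in corpus, and Gins2 passed in neither. Gins1 had 2.43 and 3.60 CPM in antrum, 2.66 and 2.71 CPM in corpus, and 7.51 and 10.9 CPM in forestomach. Its log2 fold changes were -1.34 in antrum (limma adjusted p = 0.00406) and -1.45 in corpus (limma adjusted p = 0.00245). Gins2 had 8.44 and 7.65 CPM in antrum, 6.73 and 4.85 CPM in corpus, and 6.95 and 8.17 CPM in forestomach, so that its antrum and forestomach libraries overlapped. Values were 0.08 in antrum (limma adjusted p = 0.832) and -0.34 in corpus (limma adjusted p = 0.318). Gins2 overlaps exons of Gse1 on the other strand by 2758 bases in the GENCODE M21 annotation, and whether reads were counted by strand is not given in the sources used here. Members that were called have such overlaps too, among them Rfc2 with Lat2 (952 bases) and Chaf1a with Ubxn6 (1862 bases). The part of these overlaps in the values was not tested. Gins4 had 13.0 and 12.5 CPM in antrum, 10.04 and 9.38 CPM in corpus, and 16.7 and 19.1 CPM in forestomach, with values of -0.46 in antrum (limma adjusted p = 0.175) and -0.82 in corpus (limma adjusted p = 0.0247), the corpus value being -0.52 with median ratios. The groups of Gins4 did not overlap, although its corpus call was lost when any antrum or corpus library was left out.

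Among the genes of origin licensing and firing, 1 of 4 was lower in antrum, near the 18.7% of all genes that were. In corpus 3 of 4 were lower, where 26.5% of all genes were. Orc6, a subunit of the origin recognition complex, had 9.42 and 10.6 CPM in antrum, 7.60 and 7.09 CPM in corpus, and 20.2 and 26.7 CPM in forestomach. It was lower, at -1.14 in antrum (limma adjusted p = 0.00754) and -1.54 in corpus (limma adjusted p = 0.00137). Cdc6, which loads the helicase together with Cdt1, had 14.7 and 15.5 CPM in antrum, 10.01 and 9.19 CPM in corpus, and 12.0 and 12.6 CPM in forestomach. Here the antrum libraries were the highest and the 3 groups lay apart, with values of 0.27 in antrum (SE 0.24, limma adjusted p = 0.407) and -0.33 in corpus (SE 0.24, limma adjusted p = 0.307) that did not pass the threshold.

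Cdt1 had 15.9 and 13.4 CPM in antrum, 11.4 and 8.10 CPM in corpus, and 20.6 and 17.6 CPM in forestomach. The antrum value of -0.36 (limma adjusted p = 0.327) did not pass and the corpus value of -0.91 did (limma adjusted p = 0.0236), though not without corpus 1, corpus 2 or forestomach 1. Mcm10, which helps to switch the loaded helicase on, had 12.0 and 16.6 CPM in antrum, 7.62 and 11.1 CPM in corpus, and 21.9 and 20.7 CPM in forestomach. Its antrum value was -0.56 (limma adjusted p = 0.153) and its corpus value -1.12 (limma adjusted p = 0.0118), and the libraries of the 3 groups did not overlap.

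Of Pcna, the ring that holds polymerases on DNA, and the Rfc subunits that load it, 4 of 6 were lower in antrum and 5 of 6 in corpus. Rfc2 changed most, with 20.8 and 20.4 CPM in antrum, 15.4 and 13.8 CPM in corpus, and 52.5 and 60.0 CPM in forestomach. The log2 fold changes of Rfc2 were -1.40 in antrum (SE 0.25, limma adjusted p = 0.00185) and -1.88 in corpus (SE 0.25, limma adjusted p = 0.000319). Pcna had 49.0 and 54.4 CPM in antrum, 43.4 and 36.4 CPM in corpus, and 83.2 and 100.8 CPM in forestomach, and was lower, at -0.82 in antrum and -1.18 in corpus. Rfc3 had 9.03 and 11.9 CPM in antrum, 6.38 and 5.96 CPM in corpus, and 14.9 and 17.6 CPM in forestomach. Its 3 groups lay apart, with -0.60 in antrum (limma adjusted p = 0.0987) and -1.26 in corpus (limma adjusted p = 0.00407). Rfc1, the large subunit, had 33.5 and 37.8 CPM in antrum, 24.8 and 24.8 CPM in corpus, and 60.8 and 25.9 CPM in forestomach. Forestomach 1 was above both antrum libraries and forestomach 2 below them, and neither the antrum value of -0.16 (SE 0.37, limma adjusted p = 0.77) nor the corpus value of -0.66 (SE 0.37, limma adjusted p = 0.184) passed. Without forestomach 1 the antrum value of Rfc1 turned to 0.44 (limma adjusted p = 0.09).

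Rpa coats single-stranded DNA at the fork, and Rpa1 and Rpa2, its large and middle subunits, were lower in both regions. Rpa2 had 8.0 and 10.2 CPM in antrum, 6.76 and 4.72 CPM in corpus, and 22.3 and 32.0 CPM in forestomach. It was lower, at -1.47 in antrum (SE 0.30, limma adjusted p = 0.00387) and -2.06 in corpus (SE 0.30, limma adjusted p = 0.000516). Rpa1 was lower, at -1.44 in antrum and -2.04 in corpus. Rpa3, the small subunit, had 6.71 and 7.72 CPM in antrum, 7.57 and 9.55 CPM in corpus, and 10.7 and 10.7 CPM in forestomach. It was the member with a higher mean in corpus than in antrum, its antrum and corpus libraries overlapped, and its values of -0.51 in antrum (limma adjusted p = 0.14) and -0.30 in corpus (limma adjusted p = 0.368) did not pass. Rpa3 has the shortest transcript of the members, and with a trend on transcript length removed its values turned to 0.08 in antrum and 0.15 in corpus.

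Fen1, the flap nuclease that trims Okazaki fragments, had 1.21 and 1.22 CPM in antrum, 0.79 and 0.73 CPM in corpus, and 2.39 and 3.44 CPM in forestomach. All groups lay apart, and Fen1 was lower, at -0.81 in antrum (limma adjusted p = 0.0173) and -1.14 in corpus (limma adjusted p = 0.00276), or -1.79 in corpus with a pseudocount of 0.1. In the GENCODE M21 annotation, exons of the antisense gene Gm10143 overlap 1908 bases of the exons of Fen1. Lig1, the ligase that seals the fragments, had 22.1 and 29.4 CPM in antrum, 15.8 and 15.0 CPM in corpus, and 27.6 and 20.2 CPM in forestomach. Antrum and forestomach libraries of Lig1 were interleaved and corpus lay below all of them. Values were 0.11 in antrum (SE 0.28, limma adjusted p = 0.792) and -0.59 in corpus (SE 0.28, limma adjusted p = 0.119).

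The regulators of S-phase entry were 3 of 3 lower in antrum and 3 of 3 lower in corpus. E2f1, the transcription factor that activates many replication genes, had 2.30 and 2.49 CPM in antrum, 1.95 and 1.49 CPM in corpus, and 5.62 and 5.65 CPM in forestomach. It was lower, at -0.97 in antrum (SE 0.23, limma adjusted p = 0.00847) and -1.29 in corpus (SE 0.23, limma adjusted p = 0.00162). Ccne2, a cyclin E, had 3.54 and 5.59 CPM in antrum, 2.82 and 3.36 CPM in corpus, and 7.32 and 23.3 CPM in forestomach. The groups of Ccne2 did not overlap, but forestomach 2 was far above forestomach 1. Its antrum value of -1.38 (SE 0.45, limma adjusted p = 0.038) became -0.61 without forestomach 2 and lost its call there and under 8 other alternatives. Without forestomach 1 it was -2.15. In corpus it was -1.80 (SE 0.45, limma adjusted p = 0.0107), but -1.03 without forestomach 2, and the corpus call was lost without corpus 1. Ccne1, the other cyclin E, had 4.67 and 6.16 CPM in antrum, 3.26 and 3.08 CPM in corpus, and 9.18 and 16.3 CPM in forestomach, with -1.06 in antrum, which was -0.68 and not called without forestomach 2, and -1.67 in corpus.

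Of the genes that act on new chromatin, 1 of 4 was lower in antrum, near the 18.7% of all genes that were. In corpus 4 of 4 were lower, where 26.5% of all genes were. Chaf1b, a subunit of the chromatin assembly factor that places histones on new DNA, had 9.68 and 10.8 CPM in antrum, 4.64 and 6.02 CPM in corpus, and 17.7 and 27.9 CPM in forestomach. It was lower, at -1.05 in antrum (limma adjusted p = 0.0197) and -1.89 in corpus (limma adjusted p = 0.000824). Its partner Chaf1a had 10.4 and 9.68 CPM in antrum, 7.0 and 4.87 CPM in corpus, and 18.3 and 15.5 CPM in forestomach, with -0.69 in antrum (limma adjusted p = 0.0694) and -1.38 in corpus (limma adjusted p = 0.00296). For both genes the 3 groups were separate.

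Uhrf1, which brings the maintenance DNA methyltransferase to new DNA, had 49.6 and 56.6 CPM in antrum, 34.4 and 28.1 CPM in corpus, and 98.2 and 79.4 CPM in forestomach. Its antrum value of -0.73 missed the threshold (limma adjusted p = 0.0589) and its corpus value of -1.48 passed it (limma adjusted p = 0.00199), with no overlap between groups. Slbp, which binds the stem-loop of histone mRNAs, changed least in this group of genes. It had 17.6 and 21.6 CPM in antrum, 15.8 and 13.8 CPM in corpus, and 27.8 and 30.4 CPM in forestomach, with -0.55 in antrum (limma adjusted p = 0.118) and -0.93 in corpus (limma adjusted p = 0.0165).

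**Figure D2:**
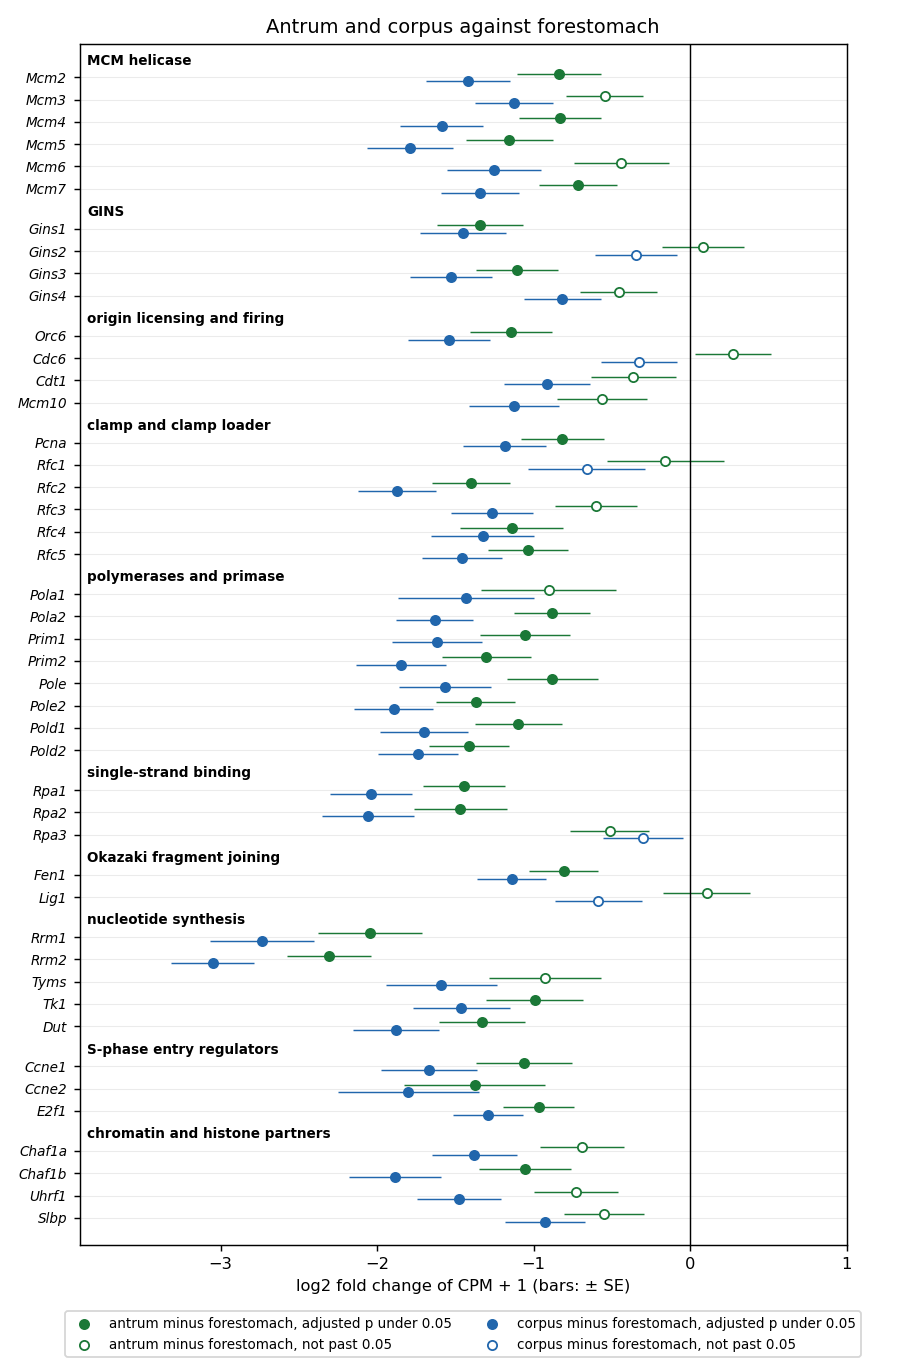
Log2 fold change of CPM + 1 with its SE for antrum minus forestomach (green) and corpus minus forestomach (blue), by role, with filled points at a limma adjusted p under 0.05. The 29 filled antrum points and 40 filled corpus points all lie left of 0, and Rrm2 and Rrm1 lie farthest left.

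In antrum against corpus no single member passed the test. Called genes were few over the whole table, 66 of 11891 (0.555%) higher in antrum and 24 lower, and none of the 45 members was among them (limma, lowest adjusted p of a member 0.365). At an unadjusted p under 0.05 there were 15 members (33.3%), and 7.9% of all genes. The log2 fold changes of 44 of 45 members were positive, all but that of Rpa3, where 80.5% of all genes were positive, and the median was 0.56, against 0.21 over all genes. Both antrum libraries lay above both corpus libraries for 41 of 45 members (91.1%), where 45.4% of all genes did so. The exceptions were Gins1, Rfc4, Pola1 and Rpa3. The ratio of antrum over corpus means ran between 0.843 and 1.92, with a median of 1.55.

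The size of this difference moved with the scaling of the libraries. Reads on listed genes made up 42.9% and 37.3% of the antrum libraries and 38.0% and 33.1% of the corpus libraries. Scaled by median ratios, the members' median was 0.35 against 0.01 over all genes, and 33 of 45 members had antrum above corpus in both libraries, against 21.1% of all genes. Scaled to the same total over the listed genes, 34 of 45 did, against 26.9%. Measured from the median of all genes, the members stood at 0.35 with the deposited scaling, 0.34 with median ratios and 0.36 over the listed genes. That value moved with single antrum libraries, to 0.49 without antrum 1 and 0.16 without antrum 2. Gins1 turned to -0.06 and -0.03 under these scalings, and Rfc4 to -0.02 under median ratios. The highest values were those of Chaf1b (0.83, SE 0.29), Mcm6 (0.81, SE 0.30), Mcm4 (0.75, SE 0.26), Uhrf1 (0.75, SE 0.27) and Pola2 (0.75, SE 0.24), named for the size of their values.

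**Figure D3:**
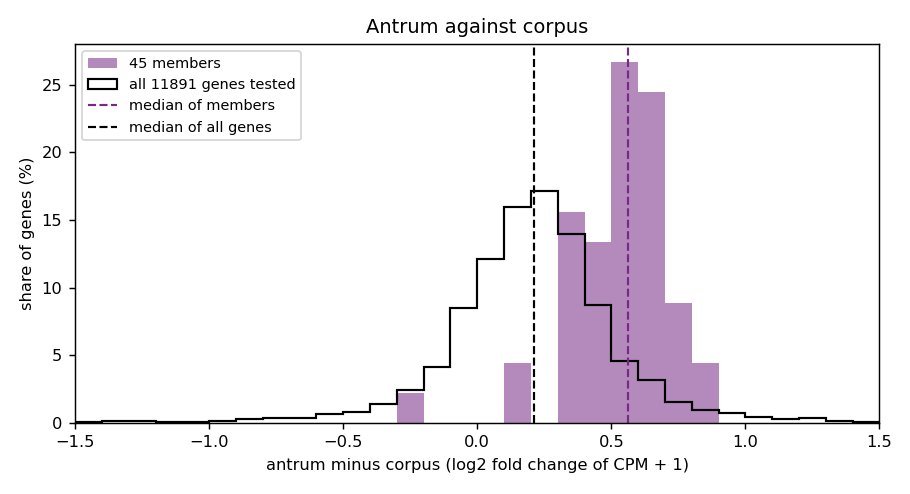
Distribution of the log2 fold change of CPM + 1 for antrum minus corpus, as a share of the 45 members (purple) and of all 11891 genes tested (black line), with dashed lines at the medians, for values between -1.5 and 1.5. The members centre on 0.56 and all genes on 0.21, and 1 member, Rpa3, lies left of 0.

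The same changes of scale moved the comparisons with forestomach. Over all genes called in corpus against forestomach, 39.2% were higher in corpus with the deposited scaling (2032 higher and 3146 lower), 54.8% with median ratios (3092 and 2548) and 53.2% over the listed genes (2969 and 2611). Relative to the median of all genes, the members' median in corpus against forestomach was -1.23, -1.22 and -1.32 under these scalings, in the same order, and that in antrum against forestomach was -0.90, -0.89 and -0.97.

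The libraries of a region differed most in forestomach: 161 genes were more than 2-fold apart between the antrum libraries on the scale of CPM + 1, 121 between the corpus libraries and 1488 between the forestomach libraries. Of the members, 3 were more than 2-fold apart between the forestomach libraries (6.67%), where 12.5% of all genes were. These were Ccne2, higher in forestomach 2 by 1.54 on the log2 scale, and Rfc1 and Pola1, higher in forestomach 1 by 1.199 and 1.12. Among the members 1, Pola1, was more than 2-fold apart between the antrum libraries and 0 between the corpus libraries. The median log2 difference, forestomach 1 minus forestomach 2, was -0.12 over the members, 18 of which were higher in forestomach 1, and 0.28 over all genes.

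The difference between the forestomach libraries went with transcript length, taken as the longest coding transcript in GENCODE M21. Over 10314 genes with a length, Spearman's rho between length and forestomach 1 minus forestomach 2 was 0.46, against -0.19 for antrum 1 minus antrum 2 and -0.23 for corpus 1 minus corpus 2. Over the 45 members it was 0.56 in forestomach, 0.0058 in antrum and 0.11 in corpus. These are descriptions across genes that share the same libraries. Median differences between the forestomach libraries over all genes were 0, 0.17, 0.33, 0.48 and 0.74 over 5 length classes of equal size, from short to long, and those of the members in the same classes were -0.25 (12 genes), -0.13 (10), 0.05 (12), 0.12 (8) and 0.56 (3). Of the 22 longer members 14 were higher in forestomach 1, and of the 23 shorter ones 4 were. Tyms, Tk1, Ccne1 and Ccne2, all higher in forestomach 2, were of 3163, 1440, 2000 and 3006 bases. Tyms and Ccne2 were thus longer than the median member of 2755 bases and ran against the trend. With the length trend removed, these 4 stood at -0.95, -0.43, -0.57 and -1.53, so that Tyms and Ccne2 hardly moved. Rfc1, Pola1, Rrm1 and Mcm6, all higher in forestomach 1, were of 4751, 5346, 3997 and 4355 bases. They stood at 0.98, 0.84, 0.62 and 0.47 with the trend removed. With a trend on length removed from each library, 33 members were lower in antrum and 40 in corpus than in forestomach, and 1 member remained more than 2-fold apart between forestomach libraries.

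**Figure D4:**
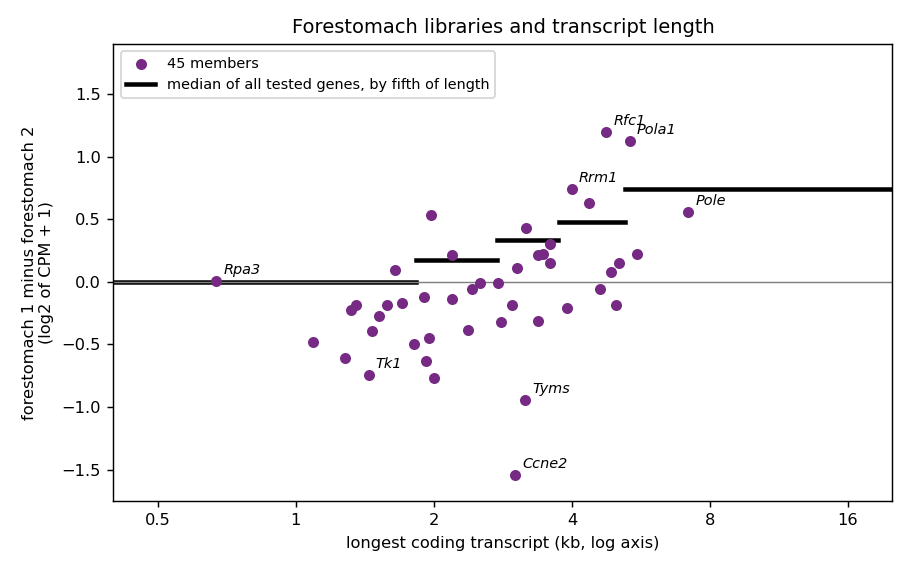
Log2 difference of CPM + 1 between forestomach 1 and forestomach 2 against transcript length in kb on a log axis, for the 45 members (purple points) and as medians of all tested genes in 5 length classes of equal size (black bars). The bars climb with length from 0 to 0.74, and Ccne2 at -1.54 and Rfc1 at 1.199 mark the ends of the members.

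Further genes of the same processes were counted in 6 lists by function, also chosen with earlier results of these data known. Over all genes, 18.7% were lower and 20.2% higher in antrum, and 26.5% were lower and 17.1% higher in corpus. With a library left out, the shares of lower genes fell, except without forestomach 2, where they rose. The list counts in such fits moved with the whole table in part. Among 36 other replication genes tested, 16 were lower in antrum and 22 in corpus, with medians of -0.74 in antrum and -0.99 in corpus and 0 higher. The antrum count fell without antrum 1, antrum 2, corpus 1, corpus 2 or forestomach 1. It was least without antrum 1, where it no longer exceeded the share of all genes. The corpus count fell without corpus 2. Without forestomach 1, 1 gene was higher in antrum. Tipin, a fork protection factor, changed most, with 8.54 and 14.6 CPM in antrum, 8.76 and 7.34 CPM in corpus, and 45.6 and 60.0 CPM in forestomach (log2 fold change -2.13 in antrum and -2.56 in corpus). Chtf18, part of an alternative clamp loader, was lower, at -1.501 in antrum and -1.96 in corpus. Gmnn, geminin, the inhibitor of Cdt1, had 9.22 and 10.3 CPM in antrum, 6.48 and 5.31 CPM in corpus, and 23.2 and 19.8 CPM in forestomach, and was lower, at -1.07 in antrum and -1.71 in corpus. Top2a, the topoisomerase of S phase and mitosis, had 150.3 and 270.1 CPM in antrum, 135.7 and 152.6 CPM in corpus, and 390.2 and 184.5 CPM in forestomach. Its groups overlapped and its values of -0.41 in antrum (limma adjusted p = 0.468) and -0.89 in corpus (limma adjusted p = 0.114) did not pass.

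Among 35 other genes of nucleotide synthesis, mostly of the purine, pyrimidine and folate routes, 17 were lower in antrum and 24 in corpus, with medians of -0.90 in antrum and -1.17 in corpus and 0 higher. The antrum count fell without antrum 1 and fell further without antrum 2, where it was near the share of all genes. The corpus count fell without corpus 2. Without forestomach 1, and with either rescaling, 2 genes were higher in antrum and 1 in corpus, and without forestomach 2, 1 was higher in antrum. Gart, of purine synthesis, had 54.7 and 46.1 CPM in antrum, 43.2 and 34.0 CPM in corpus, and 173.8 and 144.1 CPM in forestomach (-1.64 in antrum and -2.02 in corpus). Ctps, which makes CTP, was lower, at -1.46 in antrum and -2.23 in corpus.

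Of 33 cell cycle regulators tested, 7 were lower and 3 higher in antrum, where 18.7% of all genes were lower and 20.2% higher. The antrum count of lower genes was thus near the share of all genes. In corpus 15 were lower and 2 higher, where 26.5% of all genes were lower and 17.1% higher. Medians were -0.38 in antrum and -0.74 in corpus. Without antrum 1 the antrum counts were 2 lower and 1 higher, without antrum 2 there were 4 lower, without forestomach 1 there were 7 higher, and both rescalings gave 6 higher. Without corpus 2 the corpus counts were 8 lower and 1 higher, and 1 was higher there without antrum 1, antrum 2 or corpus 1. E2f7, a repressor of E2F targets, was lower, at -1.53 in antrum and -2.28 in corpus, and Cdk1, the mitotic kinase, at -1.65 in antrum and -2.08 in corpus. E2f2, an activating E2F, went the other way, with 1.76 and 2.43 CPM in antrum, 2.33 and 2.58 CPM in corpus, and 0.56 and 0.35 CPM in forestomach. It was higher by 1.08 in antrum (limma adjusted p = 0.00393) and 1.25 in corpus (limma adjusted p = 0.00165). Tfdp2, an E2F partner, was higher by 1.09 in antrum and 0.97 in corpus. Ccnd1, cyclin D1, had 229.0 and 157.5 CPM in antrum, 109.6 and 63.2 CPM in corpus, and 151.6 and 152.0 CPM in forestomach, and Cdkn1a, a kinase inhibitor, had 58.7 and 35.9 CPM in antrum, 49.0 and 42.0 CPM in corpus, and 82.1 and 69.0 CPM in forestomach. Neither passed the test in either comparison.

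Of 40 genes of mitosis and G2, 24 were lower in antrum and 34 in corpus, with medians of -1.24 in antrum and -1.82 in corpus and 0 higher. The antrum count fell without antrum 1 but stayed above the share of all genes, and a few genes were higher without forestomach 1. Fam64a was lower, at -2.60 in antrum and -3.27 in corpus. Cdc20, an activator of the anaphase-promoting complex, was lower, at -1.73 in antrum and -2.31 in corpus. Mki67, the common proliferation marker, did not follow them, with 164.9 and 286.5 CPM in antrum, 131.0 and 146.9 CPM in corpus, and 238.9 and 74.1 CPM in forestomach. Forestomach 2 had the lowest level and antrum 2 the highest, and the values of 0.70 in antrum (SE 0.51, limma adjusted p = 0.307) and 0.06 in corpus (SE 0.51, limma adjusted p = 0.939) did not pass. In this list 36 of 40 genes were higher in forestomach 1 than in forestomach 2, with a median difference of 0.57. Over the 38 genes of the list with a length, that difference rose with transcript length (Spearman's rho 0.835). The rho was -0.58 between the antrum libraries and -0.48 between the corpus libraries. The part of transcript length in the level of Mki67 was not tested.

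Of 15 other genes of replication-coupled chromatin, 6 were lower in antrum and 11 in corpus, with medians of -0.77 in antrum and -1.18 in corpus. The antrum count fell without antrum 1, to little above the share of all genes, and rose without forestomach 2. With median ratios it was 10, where 20.1% of all genes were lower. The corpus count fell without corpus 1 or corpus 2 but stayed above the share of all genes. Asf1b, a histone chaperone, had 8.36 and 10.1 CPM in antrum, 6.05 and 5.54 CPM in corpus, and 30.4 and 42.5 CPM in forestomach (-1.86 in antrum and -2.45 in corpus). H2afx, a histone variant of the DNA damage response, was lower, at -1.91 in antrum and -2.23 in corpus. Replication-dependent histone genes, whose mRNA rises in S phase, numbered 53 tested, of which 46 were lower in antrum and 49 in corpus, with medians of -1.48 in antrum and -1.78 in corpus. Hist1h3i was lower, at -2.08 in antrum and -2.41 in corpus, and Hist1h2bk, at -2.02 in antrum and -2.35 in corpus. The corpus libraries stood apart for the histone genes, 22 of which were more than 2-fold apart between corpus 1 and corpus 2 (median difference 0.86), against 0 between the antrum libraries and 9 between the forestomach libraries. These genes are close copies whose reads may have been shared or lost in counting. The antrum count of histone genes fell without antrum 1, antrum 2 or forestomach 1, most without antrum 2, and stayed above the share of all genes. With the length trend removed it was 19, where 20.5% of all genes were lower. The corpus count of histone genes fell without corpus 2 or forestomach 1 and stayed above the share of all genes.

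In antrum against corpus none of the genes in these 6 lists passed the test (limma). The medians were 0.39 for other replication genes, 0.35 for other nucleotide synthesis genes, 0.43 for cell cycle regulators, 0.57 for genes of mitosis and G2, 0.32 for chromatin genes and 0.30 for histone genes. At an unadjusted p under 0.05 there were 5, 7, 9, 5, 0 and 1 genes, in that order, or 13.9%, 20.0%, 27.3%, 12.5%, 0% and 1.9% of each list, where 7.9% of all genes were.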

How the data were processed

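Per the labels' protocols, a Ribo-Zero kit was used on total RNA before sequencing. The authors deposited CPM values for 6 libraries, rounded to 2 decimals. The submitters' processing notes name STAR, HTSeq, DESeq2, edgeR and build mm9, with no versions or roles. No source used here gives the annotation or says whether strand was used, so overlapping genes may share reads (15 of 45 members overlap exons of another gene in GENCODE M21). Of 15450 rows, 19 whose symbols had become dates were left out.

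The test took genes that had at least 1 CPM in 2 libraries or more. Values of log2(CPM + 1) were fitted in limma 3.58.1 (R 4.3.3; lmFit, contrasts.fit, eBayes with trend) as 3 group means in 1 model, leaving 3 residual and 6.1 prior degrees of freedom. P-values are two-sided and adjusted by Benjamini-Hochberg. The fit was tested on simulated data. Figures used Python 3.11.15 and matplotlib 3.10.9. Members and lists were chosen with earlier results of these data known. Named in full are, by role, the members with the largest and the smallest mean change against forestomach, those not called in both comparisons with it, those over 2-fold apart between forestomach libraries, and a few further members (Rrm1, Dut, Pcna, Ccne1) added after seeing their values. From each other list the rule took the 2 called genes with the largest change in each direction, plus 6 fixed genes, of which 1 is not reported here. The column numbers were checked as pairs: the correlations of their deviations were 0.614 between antrum and corpus, -0.106 between antrum and forestomach and -0.0602 between corpus and forestomach. As the forestomach numbers did not line up with the others, the main fit used no pairs, also not between antrum and corpus. Both block alternatives paired antrum with corpus by number, and no member was called there in that comparison. Alternatives were other scalings, pseudocounts, filters, left-out libraries, blocks and a length correction.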

Additional observations from a re-analysis of the deposited data

How the results depend on the processing

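Of the members tested, 24 to 33 were lower in antrum and 35 to 40 in corpus against forestomach under the scalings, pseudocounts, filters, blocks and length correction, and 9 to 28 in antrum and 30 to 41 in corpus when a library was left out (45 were tested, but 41 with a mean of at least 5 CPM). Both the corpus count and the share of all genes lower in corpus were least without corpus 2 and greatest without forestomach 2. The corpus range with a library left out thus moved in part with the whole table. The members' median in antrum against forestomach was -0.84 with median ratios, -1.02 with a pseudocount of 0.1, -0.87 with the length trend removed, and -1.01 to -0.79 with a library left out. In corpus against forestomach it was -1.16 with median ratios, -1.28 over the listed genes, -1.62 with a pseudocount of 0.1, and -1.57 to -1.34 with a library left out. In antrum against corpus it was 0.35 with median ratios, 0.42 over the listed genes, and 0.43 to 0.64 with a library left out, and no member was called under any alternative run.

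The median of all genes turned to 0.0428 with median ratios and 0.0809 over the listed genes in antrum against forestomach, with -0.22 to 0.14 when a library was left out, and to 0.0579 and 0.0384 in corpus against forestomach. In antrum against corpus Gins1 turned to -0.0645 with median ratios and -0.0253 over the listed genes, and Rfc4 to -0.0246 with median ratios. With a library left out, Gins1 ran from -0.10 to 0.32 and Rfc4 from -0.18 to 0.54 there. In antrum against forestomach, with a library left out, Gins2 ran from -0.0212 to 0.18, Rfc1 from -0.76 to 0.44 and Lig1 from -0.11 to 0.32. With the length trend removed, Rpa3 turned to 0.0838 in antrum and 0.146 in corpus, and the members' median difference between the forestomach libraries turned to 0.0509. The causes were not tested. With the column number as a replicate block, 32 members were lower in antrum and 39 in corpus. The crossed replicate block, which exchanges the forestomach numbers, gave 27 and 40. The length correction and the crossed block were chosen after seeing the data. The count tests with edgeR and DESeq2 planned for reads recovered from the steps were not run, and the steps served for depth alone. Among the members depth limits Fen1 most, whose lowest level was 0.73 CPM where 3 reads equal 0.063 CPM.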
